A study of Mus musculus with 49 samples.

Results

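The interleukin and tumour necrosis factor (TNF) family genes were taken as all genes whose current mouse symbol starts with Il and a number, or with Tnf. The symbol was read from the name that the array's annotation gives to each probe. It fitted 101 probes, and where a gene had several probes the one with the highest mean intensity over all arrays stood for it. This gave 89 members of the 13852 genes on the array, 58 with an Il symbol and 31 with a Tnf symbol, and 12 of them had more than 1 probe. By role they were 25 interleukins, 28 interleukin receptor subunits, 5 interleukin antagonists or decoy receptors, 8 ligands of the TNF superfamily, 13 TNF receptors, 2 TNF decoy receptors and 8 genes named for their induction by TNF-alpha.

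Interleukins and TNF ligands are secreted or membrane-bound signals between cells, and each acts through its own receptor. Interleukin-1 and interleukin-18 receptors recruit adaptor proteins that activate the transcription factor NF-kappaB, as TNF receptors do, whereas most other interleukin receptors signal through JAK kinases and STAT proteins. Soluble antagonists and decoy receptors bind the ligand or the receptor without passing the signal on, and fibroblasts and keratinocytes of the skin both make many of these proteins.

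The study looked for factors that can take the place of OCT4 or SOX2 when fibroblasts are reprogrammed to induced pluripotent stem cells (iPSC). RNA of 23 groups was hybridised to 49 one-colour arrays, 2 arrays per group and 3 for ESC B6, OKM+EV and GATA4+SKM. The fibroblasts (MEF) came from the limb and tail skin, freed of epidermis, of female OGXICR mice of age D13.5, and received the factors by lentivirus under doxycycline control. EV is the empty vector. OKM names a mix with OCT4, KLF4 and MYC, and SKM one in which SOX2 replaces OCT4. MEF1 EV, infected with EV alone, was the control for substitutes of OCT4, which were added to SKM: OCT4 itself, GATA6, SOX7, PAX1, GATA4, CEBPa, HNF4a, GRB2 and MIXL1. MEF2 EV was the control for substitutes of SOX2, and OKM was combined with EV, SOX1, SOX2, SOX3 or GMNN. The pluripotent lines were 3 iPSC lines of the same fibroblasts (G6Gm, G3 and Dlx3RNAi, the last labelled with Dlx3 RNAi), the embryonic stem cell (ESC) line R1 of strain 129 and the line B6 of strain C57BL\6, each a single line. These lines grew on mitomycin C-treated MEF feeders, in medium with PD0325901 and CHIR99021 that the labels say LIF, a cytokine of the IL-6 family, could replace. The labels give 10% serum for the fibroblast groups and the iPSC lines, and state no serum percentage for ESC R1 and ESC B6. The time after infection is not given in the sources used here. Nothing in the labels says that the arrays of a group came from separate cultures, so p-values measure only the spread between arrays.

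The deposited intensities fell into 5 sets of arrays that had been normalized separately, since the arrays of a set lack the same probes and have nearly the same sorted values. ESC B6 formed set A, and OKM+EV with its control MEF2 EV set B. The OKM mixes with GMNN, SOX1, SOX2 or SOX3 formed set C, all SKM groups with MEF1 EV set D, and the 3 iPSC lines, ESC R1 and uninfected MEF set E. Between sets, set and group cannot be told apart, so groups were compared only within a set. The comparison of the SKM effect with the OKM effect spans sets D and B, with each effect taken against the control of its own set. In it, set and control cannot be told apart from the mix of factors. Of the 89 members, 77 had a value in set A, 77 in set B, 71 in set C, 54 in set D and 70 in set E, and 45 had one in all 5 sets. A value here means one of the probe that stood for the gene. Il6ra and Il17ra each had a dimmer probe with a value on all 49 arrays, which these counts leave out. Array 3 of OKM+EV stood apart, with a correlation over all genes of 0.843 and 0.884 to arrays 1 and 2, which correlated at 0.986 with each other. The 2 arrays of OKM+SOX2 correlated at 0.905, and those of every other group at 0.976 or more. The fibroblast groups of sets B, C and D held summed intensities of fibroblast markers of 97852 or more, over 10 markers in sets B and C and 9 in set D. In set D the largest part was Vim, with means of 56937 in GATA6+SKM and 59161 in SKM+EV. Single markers could differ more, as Pdgfra did, with 1669 and 11345. In MEF2 EV the myeloid markers were also high, as given beside the results they touch. In such bulk RNA, fewer cells of a type and less RNA per cell cannot be told apart.

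The promoters of 5 members that changed with SKM are shown because 4 of them hold a motif for AP-1 or NF-kappaB, the factors through which interleukin-1 and TNF act on their target genes. Each line gives the 250 bases before the transcription start, on the gene's strand, from RefSeq on GRCm38.p6, with matches to the kappaB consensus or to TGANTCA (AP-1) on either strand in capitals.
Il6, chr5:30012864-30013113, plus strand: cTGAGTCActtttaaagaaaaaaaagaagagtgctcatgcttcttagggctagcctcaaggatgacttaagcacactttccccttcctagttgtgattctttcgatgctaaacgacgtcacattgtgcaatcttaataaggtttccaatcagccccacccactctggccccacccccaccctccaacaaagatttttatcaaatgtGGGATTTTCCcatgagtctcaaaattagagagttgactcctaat
Il1a, chr2:129309973-129310222, minus strand: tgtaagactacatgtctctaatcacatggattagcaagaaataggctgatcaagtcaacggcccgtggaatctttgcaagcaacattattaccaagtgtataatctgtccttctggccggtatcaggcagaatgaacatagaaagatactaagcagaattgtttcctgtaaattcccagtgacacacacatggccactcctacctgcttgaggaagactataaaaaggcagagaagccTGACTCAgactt
Il1rn, chr2:24336610-24336859, plus strand: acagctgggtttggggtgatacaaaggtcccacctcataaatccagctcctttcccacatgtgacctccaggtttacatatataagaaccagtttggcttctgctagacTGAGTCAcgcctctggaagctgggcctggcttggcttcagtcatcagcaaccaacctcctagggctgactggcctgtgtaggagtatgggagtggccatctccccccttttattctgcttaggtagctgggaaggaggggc
Il13ra2, chrX:147429193-147429442, minus strand: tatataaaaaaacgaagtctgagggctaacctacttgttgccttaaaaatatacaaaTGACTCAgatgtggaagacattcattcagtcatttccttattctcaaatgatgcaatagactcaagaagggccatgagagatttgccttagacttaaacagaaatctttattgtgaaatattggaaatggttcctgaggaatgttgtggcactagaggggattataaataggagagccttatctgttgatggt
Il18, chr9:50554450-50554699, plus strand: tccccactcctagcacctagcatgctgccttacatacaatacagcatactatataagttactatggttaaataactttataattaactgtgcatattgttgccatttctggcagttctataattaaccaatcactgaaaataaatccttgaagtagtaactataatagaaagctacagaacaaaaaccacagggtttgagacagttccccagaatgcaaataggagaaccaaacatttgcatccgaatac
The Il6 stretch holds a kappaB match that starts 44 bases before the transcription start and a TGANTCA match 249 bases before it. TGANTCA starts 12 bases before the start of Il1a, 141 before that of Il1rn (the most upstream of its 3 starts in the table) and 193 before that of Il13ra2, and the Il18 stretch holds neither motif. Over windows from 250 bases before to 50 bases after a start, 12 of 87 windows of the 71 members in the table held a kappaB match (13.8%) against 8.46% of all 32851 windows, and 19 held TGANTCA (21.8% against 7.81%). Of the 11 members named for SKM+EV against MEF1 EV, 2 held a kappaB match and 4 held TGANTCA. Those 4 are Il6, Il1a, Il1rn and Il13ra2, so the stretches shown were picked for the motif and do not stand for the 11. The counts are of members, and a member can have several windows, so they cannot be set against the shares of windows. The 2 motifs share no bases in these 5 stretches, and a match is a description of the letters only.

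SKM was compared with empty vector to ask which members the 3 shared factors move in fibroblasts on their own. After SKM, Il18 and Il1a, which encode cytokines of the interleukin-1 family made by epithelial cells, and Il6, the main inflammatory cytokine of fibroblasts, were higher, and Il1rn, the antagonist of the interleukin-1 receptor, was lower. Values are intensities as deposited, and changes are differences of log2(intensity + 32) between group means from a limma fit over all arrays, with p-values adjusted by Benjamini-Hochberg over all genes tested and a threshold of 0.05. Of 54 members tested, 10 rose and 3 fell, that is 18.5% and 5.56%, where 9.99% of all 10006 genes rose and 9.69% fell. The median change of the members was 0.21, and that of all genes -0.02.

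Among the ligands, Il18 had intensities of 901 and 827 in MEF1 EV and 10239.7 and 13108 in SKM+EV. Both SKM arrays were brighter than both controls, and the log2 change was 3.70 (SE 0.37, adjusted p = 4.4e-09). Il1a had 119.6 and 51.8 in MEF1 EV and 261 and 337 in SKM+EV, a change of 1.54 (SE 0.25, adjusted p = 2.5e-05). Its SKM arrays lay above both controls, but below the median probe of the set, 439.8. Il6 had 692 and 556 in MEF1 EV and 1573 and 1639 in SKM+EV, a change of 1.33 (SE 0.13, adjusted p = 6.5e-08), and its groups did not overlap. The other 10 ligands tested did not pass, among them Il1b at -0.26 and the alarmin Il33 at -0.07.

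Of the antagonists and decoys, Il1rn fell and Il1r2, the decoy receptor that binds interleukin-1 without signalling, rose. Il1rn had 1094 and 1111 in MEF1 EV and 269 and 258 in SKM+EV, a log2 change of -1.94 (SE 0.15, adjusted p = 1.5e-11), and its groups did not overlap. Il1r2 rose by 0.87, from 421 and 723 to 808 and 1328. Il18bp, the secreted protein that traps interleukin-18, fell by 0.72 on the log2 scale, from 109 and 151 to 57.6 and 74.5, below the median probe of the set. Il13ra2, the decoy receptor of interleukin-13, went from 417 and 377 to 903 and 811, a change of 1.05 (SE 0.15, adjusted p = 3.3e-06).

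Of 15 interleukin receptor subunits tested, 2 rose and 1 fell. Il6ra, which binds interleukin-6, had 421 and 339.5 in MEF1 EV and 795 and 806 in SKM+EV, a change of 1.02 (SE 0.19, adjusted p = 0.00058). The 2 arrays of each group lay close together, but the mean of all its probes did not pass (adjusted p = 0.14). Il15ra, the interleukin-15 receptor chain, rose by 0.73 at a dim level, from 29.3 and 74.1 to 77.9 and 130.1, and by 1.12 without MEF1 EV replicate 2. Il17rd, also known as an inhibitor of fibroblast growth factor signalling, fell from 1650.3 and 1507 to 633 and 615, a change of -1.29 (SE 0.19, adjusted p = 4.3e-06). Il1r1, the signalling receptor of interleukin-1, was dim in both groups and changed by 0.23 (SE 0.31, adjusted p = 0.7). Il4ra, the receptor of interleukin-4 and interleukin-13, changed by 0.82 (SE 0.32, adjusted p = 0.067), although 3746 and 3471 in SKM+EV both lay above 1956 and 2099.6 in MEF1 EV, and it passed in a fit of set D alone (adjusted p = 7.2e-06).

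In the TNF group, Tnfrsf21 (death receptor 6), Tnfsf11 (RANKL, the ligand of osteoclast formation) and Tnfaip2 rose. Tnfrsf21 had 233 and 275 in MEF1 EV and 480.2 and 1038 in SKM+EV, a change of 1.38 (SE 0.23, adjusted p = 3.8e-05), with the SKM arrays further from each other than the controls were. Its change was 0.84 without SKM+EV replicate 2 (adjusted p = 0.012). Tnfaip2 went from 346 and 336 to 837 and 577, a change of 0.97 (SE 0.20, adjusted p = 0.00066). Tnfsf11 rose by 0.48, while its decoy receptor Tnfrsf11b (osteoprotegerin) changed by 0.21 (SE 0.16, adjusted p = 0.41) with overlapping arrays. The 2 receptors of TNF-alpha, Tnfrsf1a at 0.16 and Tnfrsf1b at -0.08, did not pass. Tnf itself had no value in set D and was not analysed here in the SKM groups. Without MEF1 EV replicate 1 the calls of Il1r2, Il15ra and Tnfsf11 (adjusted p 0.073 to 0.49) were lost, without MEF1 EV replicate 2 that of Tnfsf11 (adjusted p = 0.24), without SKM+EV replicate 1 that of Tnfsf11 (adjusted p = 0.094) and without SKM+EV replicate 2 those of Il1r2, Il15ra and Tnfsf11 (adjusted p 0.2 to 0.37).

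Other genes of the pathway were read from lists outside the members. Of 12 measured targets of NF-kappaB, 8 rose, with Lcn2 at 3.04 and the chemokines Cxcl2 at 2.71 and Ccl2 at 1.70, and the list's median change was 1.10. Of 15 NF-kappaB subunits, kinases and inhibitors, 2 rose, Nfkb1 by 3.65 and Bcl3 by 1.26. Jak2 (0.96) and Socs3 (0.92) were the 2 of 12 JAK-STAT genes that rose. Of 18 receptor adaptors, Tollip rose by 0.63 and Tab2 fell by 0.65 on the log2 scale. Of 14 IL-6 and TNF family genes with other names, 3 rose, among them Fas (0.92) and Lif (0.90), and 2 fell, with Ctf1 at -0.93. Keratinocyte markers moved with these members: 6 of 8 measured markers rose, and their summed intensity was 4355 to 4636 in MEF1 EV and 86722 to 87519.8 in SKM+EV, with Krt14 at 1239.6 and 48858 and Krt5 at 298 in both, below the median probe of the set. Their part in the result was not tested. Of 6 myeloid markers 0 passed in the limma fit, with 0 at an unadjusted p under 0.05, and their sum was 1578 to 1674 and 1366 to 1563, with the leukocyte marker Ptprc at 220.0 and 179, below the median probe of the set.

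**Figure D1:**
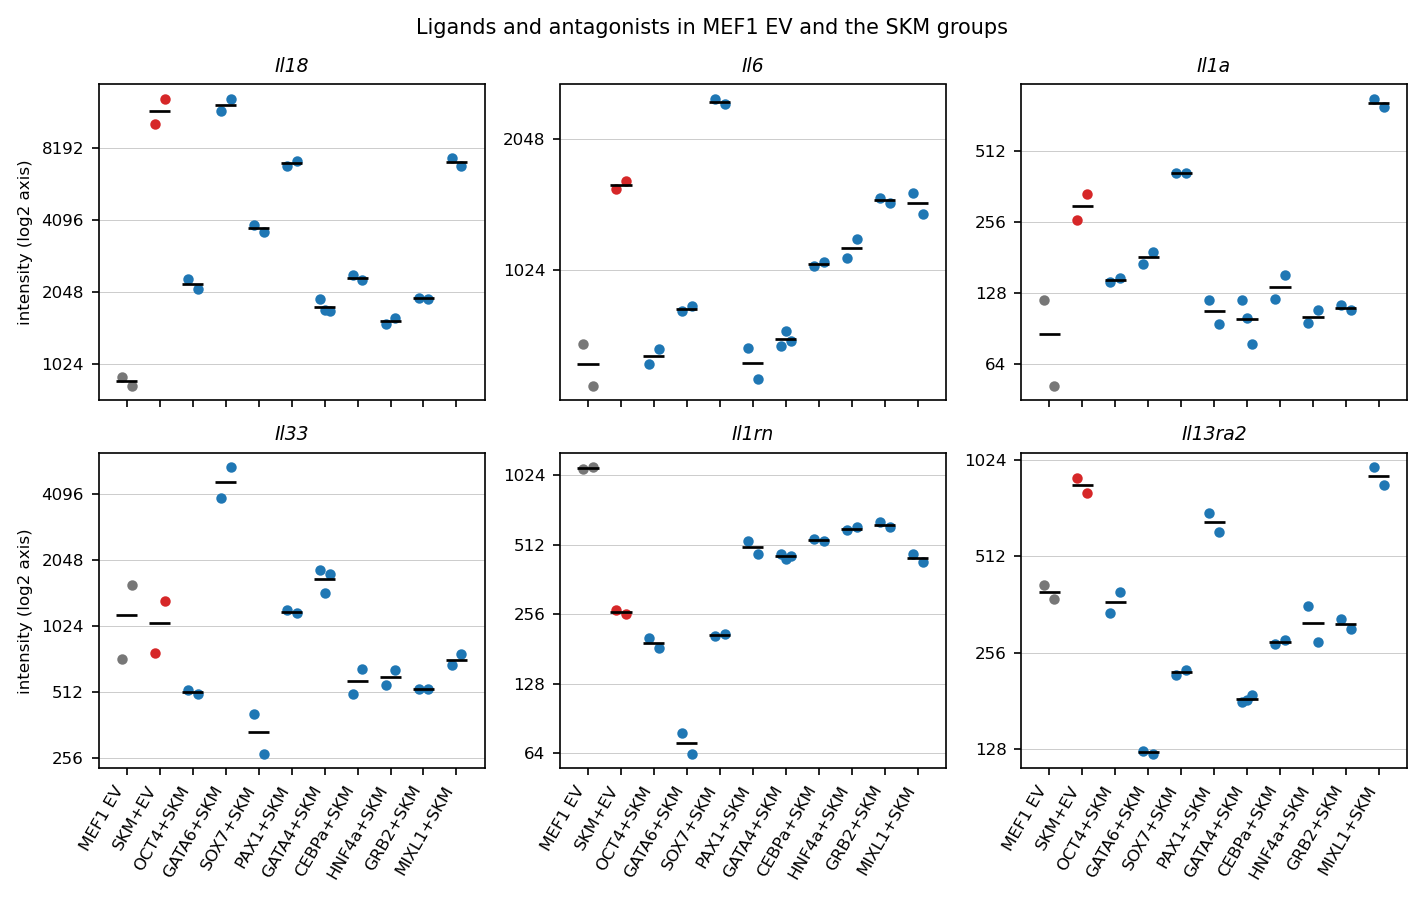
Intensity of 6 members (log2 axis) on each array of MEF1 EV (grey), SKM+EV (red) and the 9 groups of SKM with a further factor (blue); the line is the group mean. Il18 lay between 10239.7 and 13108 in SKM+EV and at or below 901 in MEF1 EV, Il33 was highest in GATA6+SKM, Il6 in SOX7+SKM and Il1a in MIXL1+SKM.

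Each of the 9 further factors was then compared with SKM+EV to see what it changed on top of SKM. These comparisons share the 2 SKM+EV arrays with each other and with the comparison against MEF1 EV, so their calls are not independent of each other and each is given on its own. Over the 11 groups of set D, the ratio of a member's highest to its lowest group mean had a median of 3.43 over the 54 members and reached 15.5 for Il1rn, between MEF1 EV and GATA6+SKM. It was at least 4 for 22 members.

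With OCT4 added to SKM, Il18, Il6, Tnfsf11 and Il4ra were lower than with SKM and EV. Of 54 members, 1 rose and 11 fell, where 5.28% of all genes rose and 5.73% fell, and the median change was -0.28 against -0.03 for all genes. Il18 had 2305 and 2104 in OCT4+SKM against 10239.7 and 13108 in SKM+EV, a log2 change of -2.38 (SE 0.37, adjusted p = 2.9e-05). Il6 had 624 and 674, a change of -1.27 (SE 0.13, adjusted p = 3.2e-07). Both genes thus lay below both SKM+EV arrays, Il6 near its level in MEF1 EV. Tnfsf11 fell to 180.1 and 218, a change of -1.36 (SE 0.17, adjusted p = 5.2e-07), and Tnfrsf11b at 0.44 did not pass. Tnfrsf11b did pass without SKM+EV replicate 1, at 0.69 (adjusted p = 0.016), and without OCT4+SKM replicate 1, at 0.64 (adjusted p = 0.037). Il4ra (-1.37), Il13ra2 (-1.15), the TNF decoy receptor Tnfrsf23 (-0.97), the interleukin-3 receptor Il3ra (-0.84) and Il1a (-0.89) fell as well, the last 2 at dim levels. Il17rd rose by 0.71, from 633 and 615 to 1046 and 1033, and Il1rn changed by -0.40 (SE 0.15, adjusted p = 0.096), which passed in a fit of set D alone (adjusted p = 0.015). The summed keratinocyte markers were 36037 to 39007 in OCT4+SKM, lower than in SKM+EV, and their part in the result was not tested. Of the 12 NF-kappaB targets 6 fell, with Lcn2 at -2.41 and Cxcl2 at -1.78. Without SKM+EV replicate 1 the calls of Il17rd and Il3ra (adjusted p 0.059 to 0.14) were lost, without SKM+EV replicate 2 those of Il17rd, Il3ra and Il1a (adjusted p 0.07 to 0.17), without OCT4+SKM replicate 1 those of Il17rd, Il3ra and Il1a (adjusted p 0.071 to 0.28) and without OCT4+SKM replicate 2 those of Il17rd and Il1a (adjusted p 0.068 to 0.087).

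With GATA6 and SKM, Il33, an interleukin-1 family alarmin of barrier tissues, rose, and several antagonists and decoys fell. Of 54 members, 5 rose and 15 fell (11.8% and 10.2% of all genes), with a median of -0.22 against -0.04. Il33 had 3898 and 5398 in GATA6+SKM and 771 and 1331 in SKM+EV, a change of 2.14 (SE 0.36, adjusted p = 5.1e-05). Il18 had 11614 and 13026, a change of 0.09 (SE 0.37, adjusted p = 0.9). Among the receptors of the TNF group, Tnfrsf21 rose to 2213 and 2649, by 1.73 (SE 0.23, adjusted p = 7.1e-07), and Tnfrsf4 (OX40) from 60.2 and 76.0 to 246 and 287, by 1.58. Tnfrsf10b, the receptor of the death ligand TRAIL, rose by 0.98. Il10rb, a chain of the interleukin-10 receptor, rose by 0.50.

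The falls with GATA6 included RANKL and its decoy receptor, and both the antagonist and the decoy receptor of interleukin-1. Tnfsf11 had 71.2 and 91.1 against 541 and 578 in SKM+EV, a change of -2.39 (SE 0.17, adjusted p = 1.3e-12), and Tnfrsf11b had 684 and 754 against 2541 and 1787, a change of -1.53 (SE 0.16, adjusted p = 3.1e-08). Il1rn had 78.3 and 63.6 against 269 and 258, a change of -1.52 (SE 0.15, adjusted p = 2.6e-09), and Il1r2 fell by 1.53 on the log2 scale. For each of these 4 genes the GATA6+SKM arrays lay below both SKM+EV arrays. Il13ra2 had 127 and 123, a change of -2.50 (SE 0.15, adjusted p = 3.1e-14) and the lowest mean of the 11 groups of the set. Il4ra (-1.59), Tnfaip2 (-1.57), Il6ra (-1.38) and Il6 (-0.92) also fell. A call on Il17re at -0.78 rests on its brighter probe, since its other probe changed by 1.18. Keratinocyte markers summed to 63928 to 70242, led by Krt14, with means of 49055 in GATA6+SKM and 48858 in SKM+EV. The other measured markers had lower means in GATA6+SKM, among them Krt17 (7841 and 17538), Lor (643 and 5384) and Sprr1b (51.4 and 1451). Fibroblast markers summed to 102790.0 to 104946 against 146509 to 153028 in SKM+EV. The part of both marker lists in the result was not tested. Of the 12 NF-kappaB targets 10 fell and 1 rose, with Lcn2 at -3.12 and Mmp9 at -2.76. Without SKM+EV replicate 1 the calls of Tnfrsf10b, Il10rb and Il17re (adjusted p 0.13 to 0.39) were lost, without SKM+EV replicate 2 that of Il10rb (adjusted p = 0.086), without GATA6+SKM replicate 1 those of Il10rb and Il17re (adjusted p 0.085 to 0.16) and without GATA6+SKM replicate 2 those of Tnfrsf10b, Il10rb and Il17re (adjusted p 0.056 to 0.25).

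With SOX7 and SKM, Il6 rose further and Il18, Il33 and Il13ra2 fell. Of 54 members, 2 rose and 6 fell (6.32% and 5.77% of all genes), with a median of -0.15 against -0.0023. The 8 calls became 5 without SOX7+SKM replicate 2 and 14 in a fit of set D alone. Il6 had 2530.3 and 2458 in SOX7+SKM and 1573 and 1639 in SKM+EV, a change of 0.63 (SE 0.13, adjusted p = 0.0022). Its receptor chain Il6ra fell to 301 and 319, a change of -1.28 (SE 0.19, adjusted p = 0.00011). In SOX7+SKM ligand and receptor thus lay outside the SKM+EV arrays in opposite directions. Il33 had 405 and 266 against 771 and 1331 and fell by 1.54 on the log2 scale. Il18 had 3873 and 3651, a change of -1.62 (SE 0.37, adjusted p = 0.0034), and Il13ra2 218 and 227, a change of -1.80 (SE 0.15, adjusted p = 2.6e-10). Il1r2 (-1.14) and the interleukin-31 receptor Il31ra (-0.85) fell, and Tnfrsf9 (4-1BB) rose by 0.92. Il1a had 415 and 413, above both SKM+EV arrays, at a change of 0.44 (SE 0.25, adjusted p = 0.28). The keratinocyte markers had a sum of 73206 to 86039. It was led by Krt14 (means of 47772 in SOX7+SKM and 48858 in SKM+EV) and Krt17 (22818 and 17538). The other measured markers had lower means in SOX7+SKM, among them Lor (559 and 5384), Sprr1b (237 and 1451) and Sfn (5989 and 8582). The part of the keratinocyte markers was not tested. Without SKM+EV replicate 1 the calls of Tnfrsf9 and Il31ra (adjusted p 0.15 to 0.44) were lost, without SKM+EV replicate 2 those of Tnfrsf9, Il1r2 and Il33 (adjusted p 0.088 to 0.15), without SOX7+SKM replicate 1 those of Tnfrsf9 and Il31ra (adjusted p 0.22 to 0.36) and without SOX7+SKM replicate 2 those of Il31ra, Il1r2 and Il33 (adjusted p 0.071 to 0.11).

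With PAX1 and SKM, Il6 and Il1a fell and Il1rn rose, so that Il6 lay between its arrays in MEF1 EV. Of 54 members, 4 rose and 8 fell (9.61% and 6.13% of all genes), with a median of -0.14 against 0.03. The 12 calls became 6 without SKM+EV replicate 1 and 6 without PAX1+SKM replicate 1, and 20 in a fit of set D alone. Il6 had 678 and 578 in PAX1+SKM, a change of -1.32 (SE 0.13, adjusted p = 1.9e-07) from SKM+EV, and Il1a had 119.9 and 94.6, a change of -1.24 (SE 0.25, adjusted p = 0.00071). Both lay below both SKM+EV arrays. Il18 had 6889 and 7175, also below both SKM+EV arrays, at a change of -0.72 (SE 0.37, adjusted p = 0.2) that passed in a fit of set D alone (adjusted p = 0.0001). Il1rn rose to 534 and 466, by 0.85 (SE 0.15, adjusted p = 0.00018). Tnfaip2 had 1443 and 1472, the highest mean of the 11 groups, and rose by 1.03. The interleukin-20 receptor chain Il20rb rose by 1.09, to 2481 and 2630.0, and Tnfrsf1b (TNF receptor 2) by 0.78. Il4ra fell by 1.44 on the log2 scale. Tnfaip3 (A20, an inhibitor of NF-kappaB) at -0.84, Tnfrsf23 at -0.73, Tnfrsf11b at -0.59, Il31ra at -0.82 and Il6ra at -0.59 fell too, and the mean of all Il6ra probes did not pass (adjusted p = 0.2). Keratinocyte markers summed to 9328 to 9657, far below SKM+EV, and their part in the result was not tested. Of the 12 NF-kappaB targets 7 fell, with Mmp9 at -2.29, and Nfkb1 fell by 3.27 on the log2 scale. Without SKM+EV replicate 1 the calls of Il20rb, Tnfrsf1b, Tnfrsf11b, Il6ra, Tnfrsf23, Il31ra and Tnfaip3 (adjusted p 0.068 to 0.42) were lost, without SKM+EV replicate 2 those of Il6ra and Tnfaip3 (adjusted p 0.11 to 0.12), without PAX1+SKM replicate 1 those of Tnfrsf1b, Tnfrsf11b, Il6ra, Tnfrsf23, Il31ra and Tnfaip3 (adjusted p 0.084 to 0.38) and without PAX1+SKM replicate 2 those of Tnfrsf11b, Il6ra, Tnfrsf23, Il31ra and Tnfaip3 (adjusted p 0.052 to 0.18).

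With GATA4 and SKM, most ligands fell and several TNF receptors rose. More members changed than with any other factor, but so did more of all genes, and this group had 3 arrays. Of 54 members, 9 rose and 26 fell, 16.7% and 48.1%, against 29% and 24.8% of all genes, and the median was -0.38 against 0.06. Of 13 ligands, 10 fell. Il18 had 1906, 1717 and 1693, a change of -2.69 (SE 0.34, adjusted p = 1.7e-07). Il11 (-1.42), Il1a (-1.34), Il1b (-1.32), Il6 (-1.14) and the interleukin-12 chain Il12a (-1.30) fell too. Of 15 receptor subunits, 6 fell, with the interleukin-23 receptor Il23r at 606, 729.9 and 964 against 3833 and 2687, a change of -2.05 (SE 0.36, adjusted p = 2.5e-05), and Il4ra at -1.67. Il1r1 was the receptor subunit that rose, from 85.4 and 138 to 319, 319.8 and 326, by 1.32 (SE 0.28, adjusted p = 0.00027). The antagonist Il1rn rose as well, from 258 and 269 to between 447 and 470, by 0.73 (SE 0.14, adjusted p = 7.4e-05).

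In the TNF group 5 of 11 receptors rose with GATA4 and 1 fell, Tnfrsf26 (-0.43, adjusted p = 0.043). Of the 5, Tnfrsf11a, Tnfrsf10b, Tnfrsf4 and Tnfrsf25 had means below the median probe of set D in both groups. Tnfrsf19, a receptor of stem and progenitor cells in epithelia and brain, had 757, 771 and 690.5 against 211 and 177, a change of 1.77 (SE 0.31, adjusted p = 2e-05). Tnfrsf11a (RANK, the receptor of Tnfsf11) rose by 1.09, from 139.6 and 132 to 347, 368 and 269, while Tnfsf11 (-0.44) and the decoy Tnfrsf11b (-1.64) fell. Tnfrsf11b had 650.1, 676 and 663, each array below both SKM+EV arrays. The death receptors Tnfrsf10b (0.98) and Tnfrsf25 (0.69) rose as well. The ligand Tnfsf12, also known as TWEAK (-1.58), and Il13ra2 (-2.04) fell. Keratinocyte markers summed to 13881 to 15621 with 8 of 8 lower, and fibroblast markers to 97852 to 118234 with 6 of 9 lower. Endothelial markers summed to 4791 to 5106 in GATA4+SKM and 1895 to 2044 in SKM+EV. This rise was that of Egfl7 alone, with means of 4694 and 1485. The other measured markers had lower means in GATA4+SKM: Cdh5 (122 and 158), Kdr (108 and 203) and Tie1 (58.8 and 123). Lymphoid markers fell beside the ligands, with sums of 727 to 842 against 1644 to 2044 in SKM+EV. Mast cell markers summed to 385 to 611 against 1400 to 1507. The part of these cell types and markers in the result was not tested. All 12 NF-kappaB targets fell, with Ptgs2 at -2.70 and Cxcl2 at -2.54. Without SKM+EV replicate 1 the calls of Tnfrsf10b, Tnfrsf26 and Tnfsf11 (adjusted p 0.056 to 0.22) were lost, without SKM+EV replicate 2 those of Tnfrsf25, Tnfrsf26 and Tnfsf11 (adjusted p 0.061 to 0.1), without GATA4+SKM replicate 1 that of Tnfrsf26 (adjusted p = 0.18) and without GATA4+SKM replicate 2 that of Tnfrsf26 (adjusted p = 0.081).

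As with GATA4, the arrays with CEBPa, HNF4a and GRB2 each showed a higher signalling receptor of interleukin-1 together with a higher antagonist. Il1r1 had 525 and 643 in CEBPa+SKM, 689 and 595 in HNF4a+SKM and 479 and 535 in GRB2+SKM, against 85.4 and 138 in SKM+EV. All 6 of these arrays lay above the median probe of the set, and both SKM+EV arrays below it. The changes were 2.12 (SE 0.31, adjusted p = 3.3e-06), 2.25 (SE 0.31, adjusted p = 9e-07) and 1.93 (SE 0.31, adjusted p = 1.3e-05). Il1rn had 543 and 533, 596 and 611 and 645 and 609.8, each above the 269 and 258 of SKM+EV, and rose by 0.95, 1.10 and 1.16. The ligand Il1a fell, with changes of -0.97, -1.30 and -1.20.

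Of 54 members, 6 rose and 13 fell with CEBPa (20% and 14.7% of all genes), 11 rose and 16 fell with HNF4a (22.9% and 19.5%), and 10 rose and 15 fell with GRB2 (23.2% and 17.1%). The medians were -0.27, -0.31 and -0.12, against 0.02, 0.03 and 0.07 for all genes. The 25 calls with GRB2 became 15 without SKM+EV replicate 1 and 16 without GRB2+SKM replicate 1, and the 27 with HNF4a became 18 without SKM+EV replicate 1. Il18 had 2396 and 2289, 1498 and 1582 and 1931 and 1907 and changed by -2.29 (SE 0.37, adjusted p = 1.8e-05), -2.89 (SE 0.37, adjusted p = 3.5e-07) and -2.57 (SE 0.37, adjusted p = 3.2e-06). Il23r had 943 and 881, 718 and 576 and 634 and 822, each below both SKM+EV arrays, and fell, with changes of -1.78, -2.26 and -2.10. Il13ra2 fell, with changes of -1.52, -1.35 and -1.35, and so did Il4ra, with -1.20, -1.33 and -1.32. Il6 fell with CEBPa (-0.59) and HNF4a (-0.47), and with GRB2 it had 1501 and 1461, a change of -0.11 (SE 0.13, adjusted p = 0.51). Whether Il6 differed between these 3 factors was not tested. Il17f, the interleukin-17 family cytokine, and Il12a fell in each, with changes of -1.86, -1.50 and -1.85 for the first and -1.23, -1.24 and -1.28 for the second.

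Receptors that rose with these 3 factors included Il15ra, Il3ra, Tnfrsf19 and Tnfrsf1b. Il15ra had 224 and 301 with CEBPa, 303 and 306 with HNF4a and 279 and 279 with GRB2 against 77.9 and 130.1 in SKM+EV, and rose by 1.13, 1.33 and 1.22. It stayed below the median probe of the set in each group. Il3ra rose by 0.87, 0.96 and 0.77, and Tnfrsf19 by 1.38, 1.18 and 1.52. Tnfrsf1b rose by 0.79, 0.73 and 0.70. The main receptor of TNF-alpha, Tnfrsf1a, had 3691 and 5009, 4598 and 4501 and 3865 and 4817 against 2221 and 3249, with changes of 0.67, 0.75 and 0.68 that did not pass, but did in a fit of set D alone (adjusted p = 0.011, 0.0044 and 0.0091). Keratinocyte markers summed to 26343 to 29618 with CEBPa, 16416 to 16816 with HNF4a and 18893 to 19101 with GRB2, lower than in SKM+EV with 8 of 8 fallen in each, and their part in the result was not tested. Lymphoid markers were lower too, with sums of 936 to 958, 705 to 829 and 670 to 906 against 1644 to 2044 in SKM+EV. Mast cell markers summed to 709 to 797, 536 to 596 and 636 to 651 against 1400 to 1507. Both sums were lower with GATA4 as well, at 727 to 842 and 385 to 611. The part of these markers in the result was not tested. A difference in handling between groups of set D cannot be told apart from the factor added. Of 12 NF-kappaB targets, 7 fell with CEBPa, 6 with HNF4a and 6 with GRB2, and Nfkb1 fell, with changes of -2.64, -3.33 and -2.94. With CEBPa, without SKM+EV replicate 1 the calls of Tnfrsf1b and Il12a (adjusted p 0.06 to 0.07) were lost, without CEBPa+SKM replicate 1 those of Il12a and Il17f (adjusted p 0.054 to 0.13). With HNF4a, without SKM+EV replicate 1 the calls of Tnfrsf1b, Il12a and Il17f (adjusted p 0.055 to 0.079) were lost, without HNF4a+SKM replicate 1 those of Il6 and Il17f (adjusted p 0.061 to 0.064) and without HNF4a+SKM replicate 2 those of Tnfrsf19 and Il12a (adjusted p 0.052 to 0.057). With GRB2, without SKM+EV replicate 1 the calls of Il3ra, Tnfrsf1b and Il12a (adjusted p 0.051 to 0.1) were lost, without SKM+EV replicate 2 that of Il3ra (adjusted p = 0.068) and without GRB2+SKM replicate 1 those of Il3ra, Il12a and Il17f (adjusted p 0.061 to 0.11).

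With MIXL1 and SKM, 3 of 54 members changed: 2 rose and 1 fell (1.05% of all genes rose and 1.05% fell), with a median of -0.03 against -0.02. Il1a had 854 and 791 in MIXL1+SKM against 261 and 337 in SKM+EV, a change of 1.38 (SE 0.25, adjusted p = 0.0011) and the highest mean of the 11 groups. Il1rn rose by 0.71, from 269 and 258 to 469 and 433. For both genes the arrays of the 2 groups did not overlap. Il6ra fell by 0.82 on the log2 scale, but the mean of all its probes did not pass (adjusted p = 0.48). No member passed in the limma fit without SKM+EV replicate 1, where 7 had an unadjusted p under 0.05 and Il1a an adjusted p of 0.056, and 1 passed without MIXL1+SKM replicate 1, while 7 passed in a fit of set D alone. Il18 had 7429 and 6891, below both SKM+EV arrays, at a change of -0.69 (SE 0.37, adjusted p = 0.55) that passed in a fit of set D alone (adjusted p = 0.00062). The sum of keratinocyte markers was 77739.7 to 83831, and 0 of 8 passed in the limma fit, with 0 at an unadjusted p under 0.05. Without SKM+EV replicate 1 the calls of Il1a, Il1rn and Il6ra (adjusted p 0.056 to 0.16) were lost, without SKM+EV replicate 2 those of Il1rn and Il6ra (adjusted p 0.067 to 0.12), without MIXL1+SKM replicate 1 those of Il1rn and Il6ra (adjusted p 0.096 to 0.18) and without MIXL1+SKM replicate 2 that of Il6ra (adjusted p = 0.12).

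**Figure D2:**
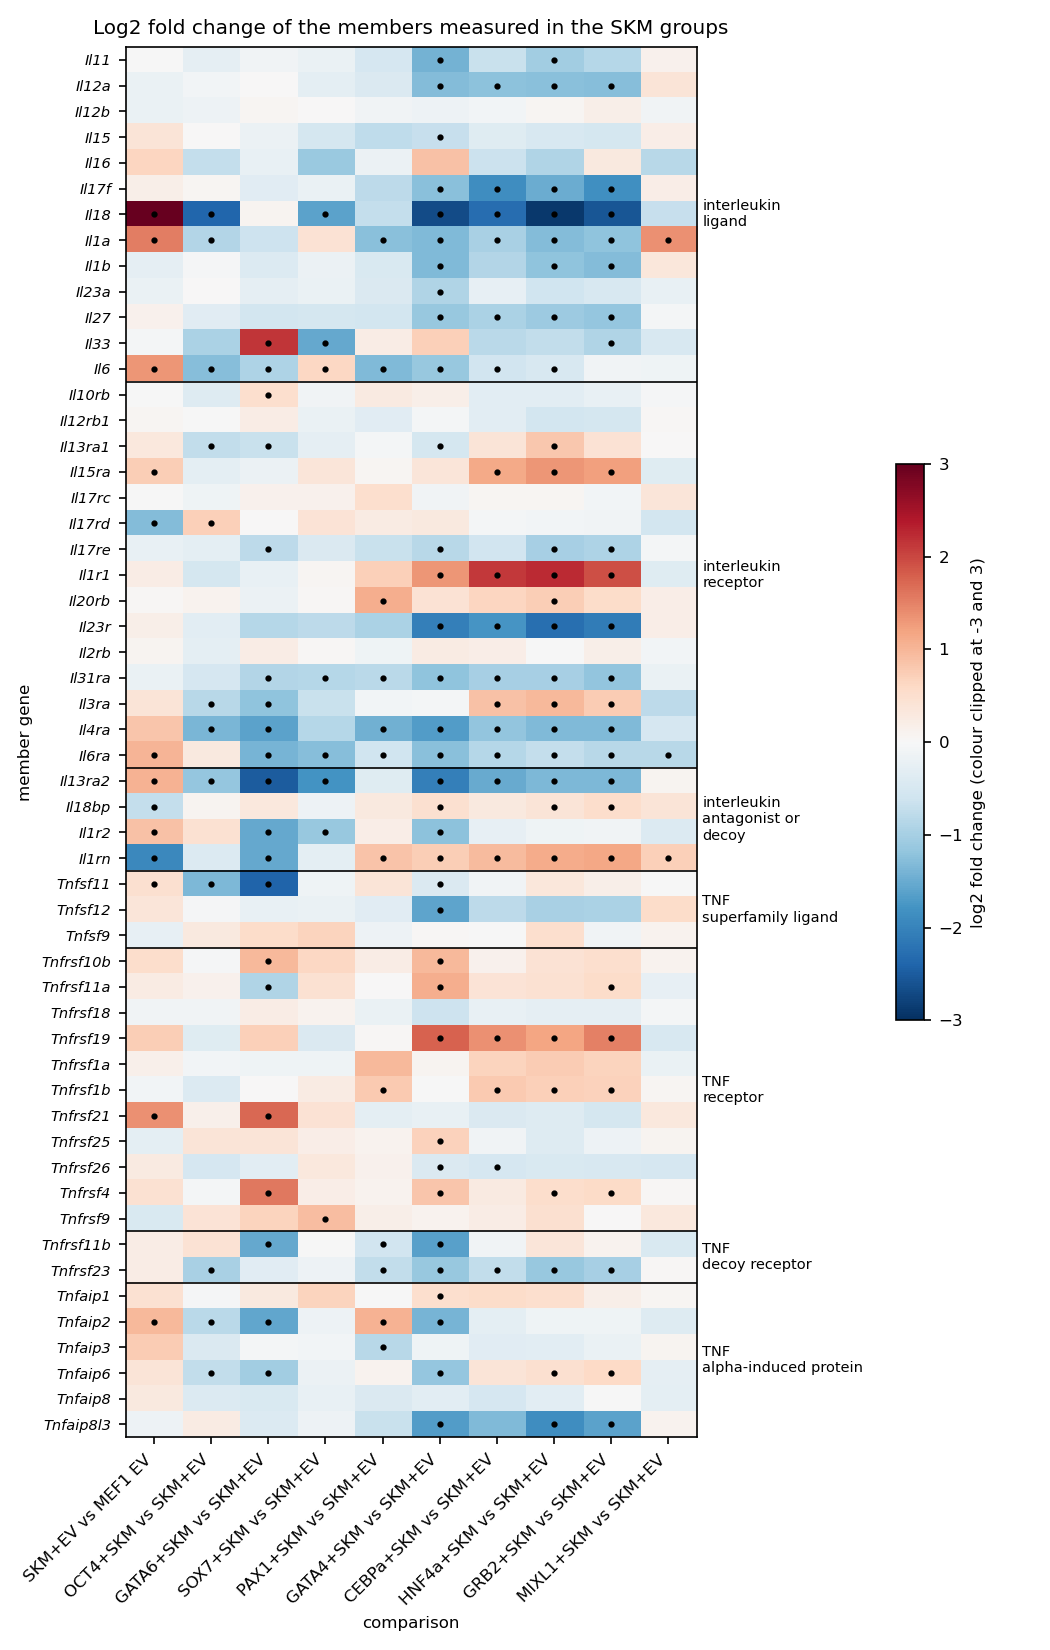
Log2 fold change of the 54 members with a value in set D (rows, by role) in the 10 comparisons of that set (columns), from blue (lower) to red (higher), with a dot where the change passed the threshold. The column of MIXL1+SKM holds 3 dots and that of GATA4+SKM 35, and all 10 comparisons use the SKM+EV arrays.

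OKM was compared with the second empty-vector control. The RANKL decoy receptor Tnfrsf11b and its ligand Tnfsf11 rose most, followed by Il13ra1, a receptor chain of interleukin-13, and Tnfrsf12a, the receptor of TWEAK, whereas Il16, Il18bp and Il3ra fell most. Of 77 members tested, 15 rose and 12 fell, 19.5% and 15.6%, where 19.8% of 11947 genes rose and 21.1% fell, and the median was 0.17 against -0.01. The share of members called was therefore not above that of all genes. The count rests on single arrays: without the outlying OKM+EV replicate 3 it was 41, of which 25 were called with it, and without MEF2 EV replicate 2 it was 14. A fit of set B alone, with its own spread, called 4. Arrays overlapped between the groups for 7 of the 27, among them Il18 at 1.16 and Tnfrsf1a at -1.20. Without OKM+EV replicate 3 these 2 changes were 1.86 and -1.88.

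Tnfrsf11b had 188 and 226 in MEF2 EV and 3009, 2954 and 3399 in OKM+EV, a change of 3.72 (SE 0.15, adjusted p = 5.5e-17). Tnfsf11 had 85.6 and 124 and 608, 573 and 599, a change of 2.21 (SE 0.15, adjusted p = 4.3e-13). For both, the 3 OKM arrays lay close together, replicate 3 included, and without it the changes were 3.66 and 2.20. Il13ra1 had 246 and 256 and 1274, 1271 and 607, a change of 1.86 (SE 0.20, adjusted p = 5.1e-09), and Tnfrsf12a had 3031 and 3465 and 13877, 13590.4 and 5961, a change of 1.67 (SE 0.28, adjusted p = 0.00023). In these 2 genes replicate 3 lay between the controls and the other OKM arrays. Il34, the second ligand of the macrophage receptor CSF1R, rose by 1.37, from 184 and 165 to 571, 621 and 349.6. Il13ra2 rose by 0.81 at a dim level, and Tnfaip3 by 0.82.

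Il18 had 4908, 4265 and 1033 in OKM+EV and 1367 and 1114 in MEF2 EV, so that replicate 3 lay below both controls and the others far above them. Il1rn (-0.34) and Il1r1 (-0.58) did not pass with all arrays. Without OKM+EV replicate 3 both fell, Il1rn by a change of -0.52 (adjusted p = 0.00086) and Il1r1 by one of -1.07 (adjusted p = 9.1e-05). Both also passed with the replicate number as a block (adjusted p = 0.0018 and 0.00022), and Il1r1 passed without MEF2 EV replicate 1 (adjusted p = 0.031). Tnf, the ligand of the TNF receptors, changed by -0.52 (SE 0.27, adjusted p = 0.13), from 158 and 120.2 to 82.2, 84.6 and 92.2. Il6st, the shared signalling chain of the IL-6 family, changed by 0.35 (SE 0.19, adjusted p = 0.15), and Il6 had no value in set B. The probe that stood for Il6ra had none there either. Its dimmer probe had a value on all 49 arrays but was not analysed on its own.

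The members that fell with OKM did so together with markers of myeloid cells. Il18bp had 462 and 344 in MEF2 EV and 89.8, 89.8 and 102 in OKM+EV, a change of -1.78 (SE 0.14, adjusted p = 7.5e-12). Il16, a chemoattractant of CD4+ cells, had 282 and 781 and 88.8, 51.6 and 166, and its fall passed (adjusted p = 0.0008). Il3ra had 285 and 610.5 and 99.7, 86.8 and 185, a change of -1.59 (SE 0.22, adjusted p = 9.5e-07). In each of these 3 genes both MEF2 EV arrays lay above all OKM arrays, although the MEF2 EV arrays differed from each other. Tnfrsf1b (-1.23), Il10rb (-1.02), the interleukin-17 receptor chain Il17rc (-1.10) and Tnfrsf26 (-1.26) fell as well, and Il4ra changed by -0.87, but by -0.24 without OKM+EV replicate 3 (adjusted p = 0.15). All 8 measured myeloid markers fell too, with a median of -3.88: their summed intensity was 64674 to 68648 in MEF2 EV and 1472 to 6067 in OKM+EV. Csf1r had means of 11114 and 170.4, Cd68 16497 and 1681, and Adgre1 7504 and 88.4. The part of myeloid cells in the falls of the members was not tested. Outside the members, Casp1, which cleaves the precursors of interleukin-1beta and interleukin-18, changed by -4.01 and Ptpn6 by -4.31. Of 15 NF-kappaB targets 9 rose and 1 fell, with Cxcl5 at 3.48 and Lcn2 at 3.13, and keratinocyte markers summed to 2931 to 3258 in MEF2 EV and 36937 to 66699 in OKM+EV. Without MEF2 EV replicate 2 the calls of Il18, Tnfaip3, Il4ra, Tnfrsf1a and Il16 (adjusted p 0.052 to 0.11) were lost, without OKM+EV replicate 1 those of Il18 and Tnfrsf1a (adjusted p 0.072 to 0.11), without OKM+EV replicate 2 those of Il18 and Tnfaip3 (adjusted p 0.058 to 0.059) and without OKM+EV replicate 3 that of Il4ra (adjusted p = 0.15).

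**Figure D3:**
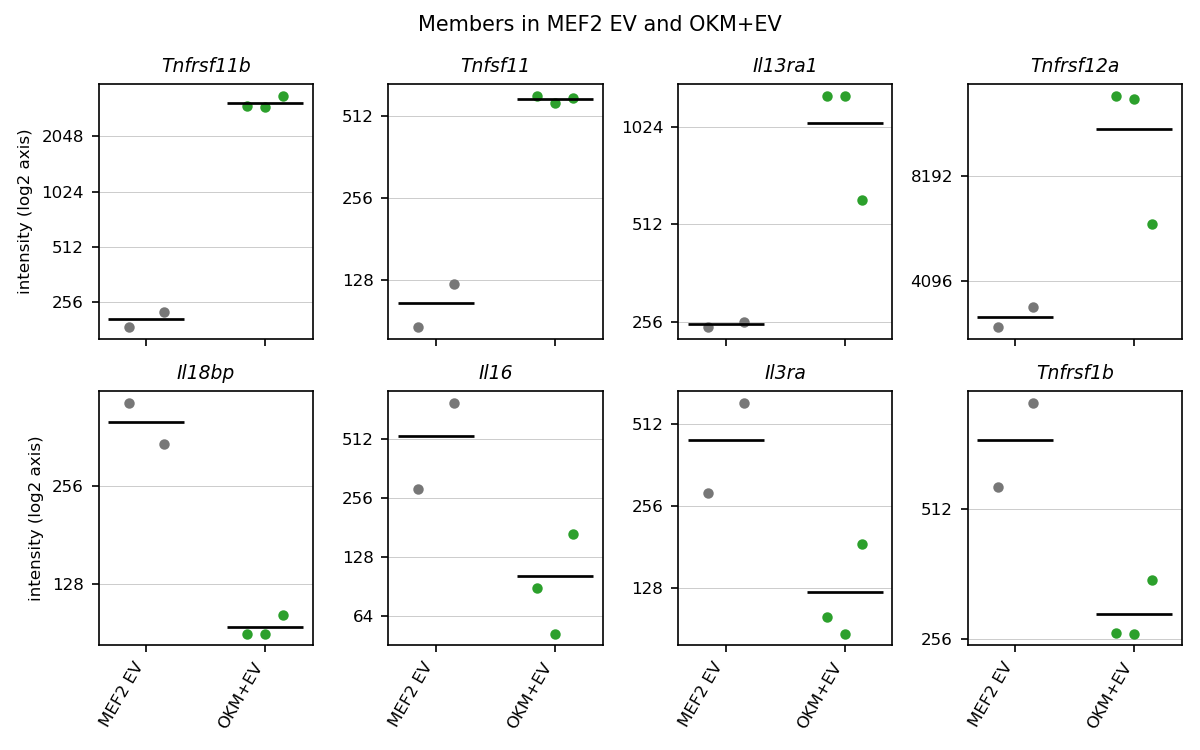
Intensity of 8 members (log2 axis) on the 2 arrays of MEF2 EV (grey) and the 3 arrays of OKM+EV (green); the line is the group mean. Tnfrsf11b lay at 2954 or more on the OKM arrays and at 226 or less on the controls, and the lower row shows members that fell.

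Set C held no array with empty vector, so SOX1, SOX3 and GMNN, the gene of geminin, were each compared with OKM+SOX2, which is the full set of reprogramming factors. The 3 comparisons share the 2 OKM+SOX2 arrays, and the members varied less here than in set D, with a median ratio of highest to lowest group mean of 1.57 over 71 members. With GMNN, 5 of 71 members rose and 3 fell (4.38% and 2.85% of 11188 genes), with a median of -0.07 against -0.05. The 8 calls became 4 without OKM+GMNN replicate 2, 5 without OKM+GMNN replicate 1 and 5 without OKM+SOX2 replicate 1, and 4 in a fit of set C alone. Il1a had 312 and 342 in OKM+GMNN and 115 and 136 in OKM+SOX2, a change of 1.19 (SE 0.25, adjusted p = 0.0023), and Il1rn had 115 and 84.5 and 319 and 241, a change of -1.24 (SE 0.15, adjusted p = 1.4e-06). Interleukin-1alpha and its antagonist thus lay on opposite sides of OKM+SOX2, on all arrays, at levels below the median probe of the set (378). Il13ra2 had 288 and 251 and 117 and 90.2, a change of 1.16 (SE 0.15, adjusted p = 4.1e-06). Il18 had 3766 and 5324 and 1741 and 1508, a change of 1.45 (SE 0.37, adjusted p = 0.014). Tnfrsf11b fell by 0.79 on the log2 scale, from 1059.8 and 962 to 586 and 555. Tnfrsf21 rose by 0.91 and Il1rap, the co-receptor of interleukin-1, fell by 0.88. Keratinocyte markers summed to 95812 to 102548 with GMNN and 32024 to 36582 with SOX2, and myeloid markers to 6933 to 7238 and 1182 to 1653, and their part in the result was not tested. Without OKM+SOX2 replicate 1 the calls of Il18 and Il1rap (adjusted p 0.065 to 0.25) were lost, without OKM+SOX2 replicate 2 those of Il18 and Tnfrsf21 (adjusted p 0.056 to 0.058), without OKM+GMNN replicate 1 those of Tnfrsf21 and Il1rap (adjusted p 0.086 to 0.11) and without OKM+GMNN replicate 2 those of Il18, Tnfrsf21 and Il1rap (adjusted p 0.063 to 0.19).

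With SOX3, 1 of 71 members rose and 3 fell (3.42% and 2.89% of all genes), with a median of -0.01 against -0.05. The 4 calls became 1 without OKM+SOX2 replicate 1, 1 without OKM+SOX3 replicate 2, 2 without OKM+SOX3 replicate 1, and 6 without OKM+SOX2 replicate 2. A fit of set C alone called 0 with SOX3 and 0 with SOX1 in limma, where 9 and 10 members had an unadjusted p under 0.05. Il1rn had 93.0 and 116 in OKM+SOX3, a change of -1.19 (SE 0.15, adjusted p = 1.6e-05) from 319 and 241 in OKM+SOX2. Il6st fell to 1450.3 and 1682, a change of -0.73, and Il17rd to 350.1 and 264, a change of -0.70. With SOX1, 2 rose and 0 fell in the limma fit (3.66% and 2.06% of all genes), with a median of -0.07 against -0.05, and 10 members had an unadjusted p under 0.05. The 2 calls became 6 without OKM+SOX2 replicate 2 and 1 without any of the other 3 arrays. Il13ra2 had 199 and 210.2 in OKM+SOX1, a change of 0.81 (SE 0.15, adjusted p = 0.0022). Tnfaip3 rose in all 3 comparisons, by 0.94 with SOX1, 1.05 with SOX3 and 1.09 with GMNN, but its OKM+SOX2 arrays had 153 and 677. Only the first of these lay apart from the other groups (618 and 713, 743 and 691 and 776 and 703), and without it the adjusted p was 0.99 with SOX1, 0.93 with SOX3 and 0.86 with GMNN. Without the second OKM+SOX2 array these changes were 1.91, 2.01 and 2.06. Markers of other cell types also differed between these groups. Myeloid markers summed to 5566 to 5959 with SOX3 and 3654 to 4167 with SOX1 against 1182 to 1653 with SOX2, and the sums of keratinocyte markers were 48286 to 53033 and 46025 to 48604 against 32024 to 36582. Fibroblast markers summed to 99144 to 99907 with SOX3 and 121520.0 to 131920.0 with SOX1 against 119185 to 127418. The part of these cells in the results was not tested. Without OKM+SOX2 replicate 1 the calls of Tnfaip3, Il17rd and Il6st (adjusted p 0.18 to 0.93) were lost, without OKM+SOX3 replicate 1 those of Tnfaip3 and Il6st (adjusted p 0.13 to 0.22) and without OKM+SOX3 replicate 2 those of Tnfaip3, Il17rd and Il6st (adjusted p 0.096 to 0.23).

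The effects of SKM and OKM, each against its own control, were then compared in the same fit as a difference of 2 differences. The spread in this fit is pooled over all arrays, so its p-values do not measure the wider spread within OKM+EV. Of 50 members with a value in both sets, 18 differed: for 13 the change was higher after SKM (13.4% of 9323 genes) and for 5 higher after OKM (12.7%), with a median difference of 0.09 against 0.02. Tnfrsf11b changed by 0.21 after SKM and 3.72 after OKM, a difference of -3.51 (SE 0.22, adjusted p = 3.3e-12), and Tnfsf11 by 0.48 and 2.21, a difference of -1.73 (SE 0.23, adjusted p = 8.3e-07). After SKM, Tnfsf11 rose and Tnfrsf11b did not pass, and both rose after OKM. The receptor Tnfrsf11a had no value in set B. Il13ra1 changed by 0.32 after SKM, which did not pass, and by 1.86 after OKM. Il1rn changed by -1.94 after SKM and -0.34 after OKM, a difference of -1.60 (SE 0.21, adjusted p = 5.9e-07). Il18 changed by 3.70 and 1.16, a difference of 2.54 (SE 0.51, adjusted p = 0.00031), and of 1.83 without OKM+EV replicate 3. Il17rd changed by -1.29 and -0.45.

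Among the 13 genes, Il16 (2.66), Il3ra (1.98), Tnfrsf26 (1.53), Tnfrsf1b (1.15), Il17rc (1.09) and Il10rb (1.01) had fallen after OKM, and their change after SKM did not pass. The 6 myeloid markers with a value in both sets all differed in the same direction, with a median of 3.14. The sum over all myeloid markers measured in a set was 64674 to 68648 in MEF2 EV and 1472 to 6067 in OKM+EV, and 1578 to 1674 in MEF1 EV and 1366 to 1563 in SKM+EV. Their part in these differences was not tested. Tnfrsf21 changed by 1.38 after SKM and -0.14 after OKM, Tnfaip2 by 0.97 and -0.32, and Il4ra by 0.82 and -0.87. The difference of Tnfrsf21 was 1.52, and 0.98 without SKM+EV replicate 2. That of Il4ra was 1.69, and 1.06 without OKM+EV replicate 3, and that of Il17rc was 1.65 without SKM+EV replicate 1. Without OKM+EV replicate 3 the number of members that differed was 26. Without MEF2 EV replicate 1 the call of Il17rc (adjusted p = 0.06) was lost, without MEF2 EV replicate 2 that of Il17rc (adjusted p = 0.062), without MEF1 EV replicate 1 those of Il17rc and Il17rd (adjusted p 0.055 to 0.17) and without SKM+EV replicate 2 that of Il17rc (adjusted p = 0.34).

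**Figure D4:**
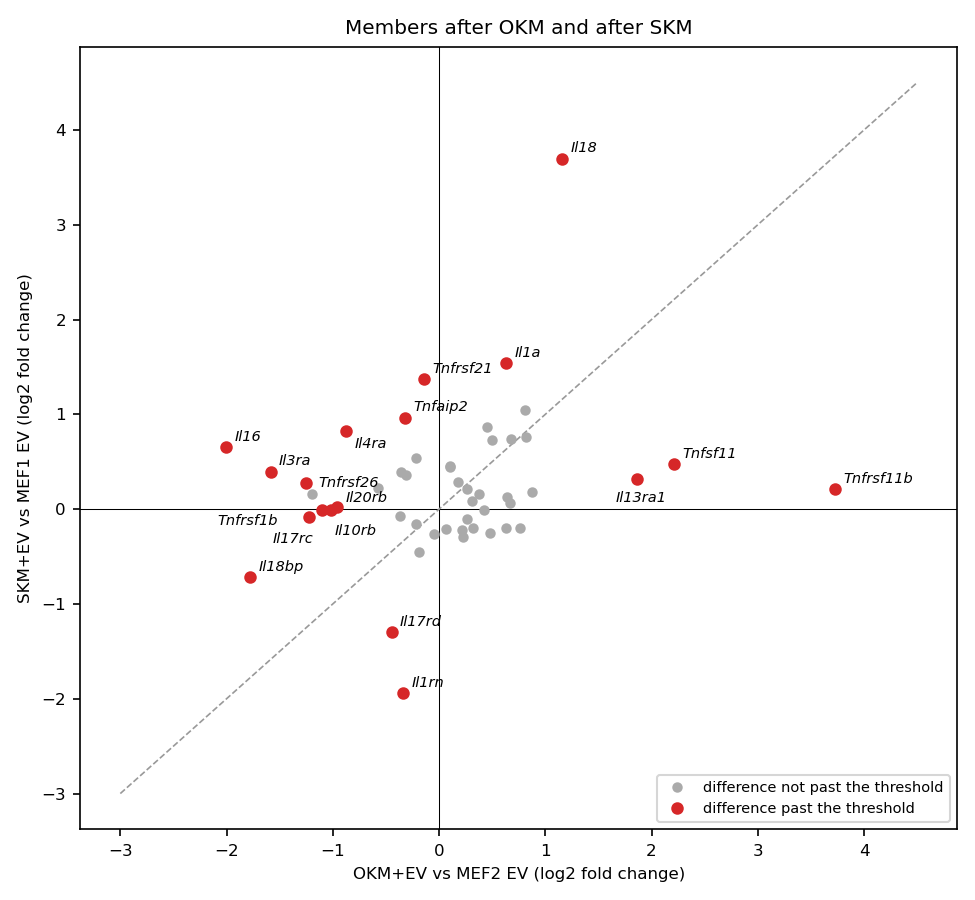
Log2 fold change of 50 members after OKM (OKM+EV against MEF2 EV, x axis) and after SKM (SKM+EV against MEF1 EV, y axis); the dashed line marks equal changes, and the 18 members whose difference passed the threshold are red and named. Tnfrsf11b lies furthest below the line, with 3.72 after OKM and 0.21 after SKM.

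The 3 iPSC lines and ESC R1 were compared, as a mean over lines, with uninfected MEF. In the pluripotent lines Il1a, Il1b and the NF-kappaB inhibitor Tnfaip3 were higher, whereas Il1rn, Il6st, Tnfsf11 and Tnfaip2 were lower. Of 70 members, 18 rose and 17 fell, 25.7% and 24.3%, where 28.7% of 11991 genes rose and 29.1% fell, and the median was -0.04 against 0.03, so the members changed about as often as all genes. The brighter group lay below the median probe of the set (319) for 21 of the 35, and without MEF uninfected replicate 2 the count was 19.

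Il1a had 36.9 and 45.5 in uninfected MEF, 341 and 413 in G6Gm, 195 and 244 in G3, 478 and 352 in Dlx3RNAi and 191 and 159.5 in R1, a change of 2.09 (SE 0.20, adjusted p = 2.5e-10). Il1b had 168 and 127 in MEF and 459 and 441 in G6Gm, 492 and 501 in G3, 588 and 813 in Dlx3RNAi and 296 and 524 in R1, a change of 1.57 (SE 0.27, adjusted p = 1.4e-05). Both ligands were above both MEF arrays on all 8 arrays of the lines. Il1rn had 213 and 224 in MEF and 25.8 and 29.0 in G6Gm, 35.3 and 34.6 in G3, 45.3 and 53.5 in Dlx3RNAi and 24.6 and 31.6 in R1, a change of -1.92 (SE 0.12, adjusted p = 1.9e-14), so the antagonist lay below MEF in every line. Il1r1 at -0.34 did not pass, but did in a fit of set E alone (adjusted p = 0.023). Il23a, the chain that makes interleukin-23, rose by 1.60 and its receptor Il23r by 1.20, and Il17b rose by 1.12.

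Il6 had 198 and 185 in MEF and 708 and 779.8 in G6Gm, 392 and 370.4 in G3, 721 and 628 in Dlx3RNAi and 211 and 195 in R1. All iPSC arrays lay above MEF, while the R1 arrays overlapped with MEF, so the mean change over lines (1.10) joins lines that differ. Il6st had 1388 and 1737 in MEF and 554 and 614 in G6Gm, 359 and 369 in G3, 465 and 579 in Dlx3RNAi and 513 and 429 in R1, a change of -1.64 (SE 0.16, adjusted p = 6.3e-08). The chain through which LIF and interleukin-6 signal was thus lower on every array of the lines. The interleukin-10 receptor chain Il10rb changed by -1.64 and Il18 by -0.89.

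In the TNF group, Tnfsf11 had 246 and 273 in MEF and 48.9 and 39.3 in G6Gm, 49.7 and 45.3 in G3, 49.2 and 47.9 in Dlx3RNAi and 48.7 and 44.1 in R1, a change of -1.89 (SE 0.13, adjusted p = 2.7e-13). Tnfaip2 had 465 and 433 in MEF and 125 and 145 in G6Gm, 68.0 and 74.5 in G3, 122 and 90.3 in Dlx3RNAi and 52.9 and 47.5 in R1, a change of -2.03 (SE 0.16, adjusted p = 4.2e-12). Tnfaip3 had 288 and 275 in MEF and 1077 and 1089.6 in G6Gm, 608 and 607 in G3, 1217 and 1181 in Dlx3RNAi and 867 and 827 in R1, a change of 1.58 (SE 0.22, adjusted p = 5e-07), so that the 2 genes named for induction by TNF-alpha lay on opposite sides of MEF. Tnfrsf21 (1.35) and Tnfrsf19 (1.49) rose, and Tnfrsf4 (-0.94) and Tnfaip6, a secreted matrix protein (adjusted p = 1.1e-06), fell at dim levels. Tnf had 48.5 and 78.5 in MEF and at most 68.4 in the lines and changed by -0.28 (SE 0.24, adjusted p = 0.33), and Tnfrsf1a changed by -0.71 (SE 0.32, adjusted p = 0.058), which passed in a fit of set E alone (adjusted p = 0.0032) and without MEF uninfected replicate 1, at -1.08 (adjusted p = 0.037), or ESC R1 replicate 1 (adjusted p = 0.043). Of 13 NF-kappaB targets 11 rose and 2 fell, among them Vcam1 (-2.94), Ptgs2 (2.91) and Icam1 (2.35), and Nfkbia rose by 2.48. Pluripotency markers summed to 675 to 683 in MEF and to 9993 or more in the lines. Fibroblast markers, 8 of 9 of which fell, still summed to 62169 to 67949 in Dlx3RNAi, 57595 to 59796 in G6Gm, 47799 to 48586 in R1 and 36674 to 36884 in G3 against 61302 to 66057 in MEF, on feeders of MEF. The sum of Dlx3RNAi thus overlapped that of MEF, but its largest part was Vim, at 40433 in Dlx3RNAi and 31265 in MEF. Col1a2 was also higher there, at 11893 and 8817. The other measured markers were lower in Dlx3RNAi than in MEF, among them Pdgfra (133 and 2117), Col3a1 (137 and 1046), Snai2 (330 and 2732) and Lum (298 and 1759). Myeloid markers summed to 3397 to 3711 in MEF and 1435 to 2385 in the lines. Most of this difference was Cd14, at 1527 in MEF and 112 to 192 in the lines. Csf1r, Itgam, Adgre1 and Fcer1g were also lower in every line. The markers did not all go this way. Cd68 was 650 in MEF but 927 in G3, 1345 in R1 and 742 in Dlx3RNAi, and Ptprc was 86.9 in MEF and 114 to 140 in the lines. Lymphoid markers summed to 543 to 654 in MEF and 949 to 1470 in the lines, and mast cell markers to 205 to 322 and 535 to 950. The part of feeder cells and of these markers in the values was not tested. Without MEF uninfected replicate 1 the call of Il18 (adjusted p = 0.061) was lost, without MEF uninfected replicate 2 that of Il18 (adjusted p = 0.093).

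Between the iPSC lines and ESC R1, which differ in strain, 6 of 70 members rose and 2 fell (7.2% and 6.35% of all genes), with a median of 0.05 against 0.01. The 8 calls became 4 without ESC R1 replicate 1 and 2 without ESC R1 replicate 2, and 17 in a fit of set E alone. Il6 passed in both, with a change of 1.38 (SE 0.11, adjusted p = 8.9e-09), and all 6 iPSC arrays lay above both R1 arrays. Markers of cell types differed between the same lines. Pluripotency markers summed to 9993 to 10706 in Dlx3RNAi, 11765 to 12404 in G6Gm and 15657 to 17311 in G3 against 17487 to 17897 in R1. The fibroblast sum, given above, was higher in Dlx3RNAi and G6Gm than in R1 and lower in G3. Vim, its largest part, had means of 40433, 36450 and 30270.5 in Dlx3RNAi, G6Gm and G3 against 34760 in R1. Il6 had 721 and 628 in Dlx3RNAi, 708 and 779.8 in G6Gm, 392 and 370.4 in G3 and 211 and 195 in R1, and the part of these cells in its difference was not tested. Il1r2 had 250.5 and 257 in G6Gm, 247 and 244 in G3, 182 and 158 in Dlx3RNAi and 88.3 and 65.1 in R1, a change of 1.22 (SE 0.23, adjusted p = 0.00032). Il1a (0.78) and Tnfaip2 (0.70) rose. Il17rd (0.58) and Il34 (-0.66) passed too. This comparison shares its arrays with that of all lines against MEF. In it strain, origin of the lines and any difference in serum cannot be told apart. Without iPSC G6Gm replicate 2 the call of Il34 (adjusted p = 0.052) was lost, without iPSC G3 replicate 2 that of Il34 (adjusted p = 0.051), without ESC R1 replicate 1 those of Il1a, Il17rd and Il34 (adjusted p 0.051 to 0.18), without ESC R1 replicate 2 those of Il1a, Tnfaip2, Il17rd and Il34 (adjusted p 0.085 to 0.17) and without iPSC Dlx3RNAi replicate 1 that of Il34 (adjusted p = 0.057).

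**Figure D5:**
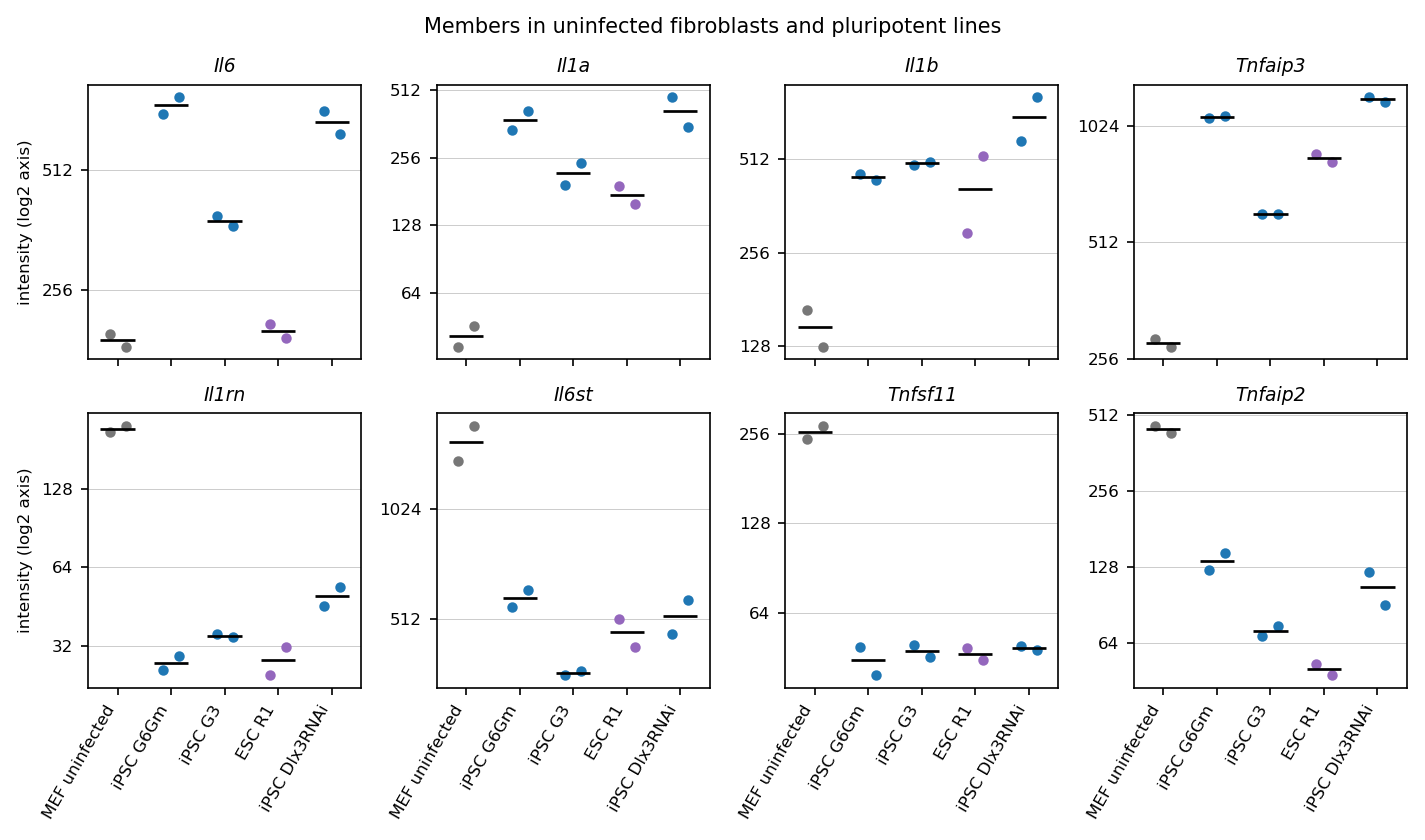
Intensity of 8 members (log2 axis) on the 2 arrays each of uninfected MEF (grey), the 3 iPSC lines (blue) and ESC R1 (purple); the line is the group mean. Il6 in R1, at 211 and 195, lay near its 198 and 185 in MEF and below every iPSC array, and Tnfsf11 lay at or below 49.7 in all lines.

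Across the 5 groups of set E the ratio of highest to lowest group mean had a median of 2.10 over 70 members and was at least 4 for 11. It was 10.1 for Il1a, 7.97 for Il1rn and 8.95 for Tnfaip2. ESC B6, alone in set A, has no group to be compared with. Its arrays gave 69.9, 76.2 and 74.0 for Il1a, 296, 195 and 279.8 for Il1b, 41.7, 43.6 and 34.2 for Il1rn, 1183, 1089.8 and 1216 for Il6st and 147, 123 and 144 for Tnfsf11. Of these genes, Il6st lay above the set median of 436 on all 3 arrays and the others below it, and Tnf had 87.0, 176 and 91.7. These values cannot be set against those of R1, since the 2 sets were normalized separately.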

How the data were processed

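RNA of 23 groups was measured on 49 one-colour arrays. The authors deposited 1 table of normalized intensities on a linear scale, and their normalization method is not given in the sources used here. The array's own background and detection calls were not used here, and the number of arrays (2 or 3 per group) limits the precision. Probes were named through the platform annotation updated to current RefSeq symbols, which left 15539 of 19426 probes with 1 symbol. Values were analysed as log2(intensity + 32) in limma 3.58.1 (R 4.3.3): group means over all 49 arrays with 1 spread per gene, eBayes with an intensity trend, 17 comparisons, and Benjamini-Hochberg adjustment over all genes of a comparison at 0.05. Groups were compared within sets, and the comparison of the SKM and OKM effects set a change within set D against a change within set B. The procedure was tested on simulated data. Deviations of same-numbered arrays correlated from -0.50 to 0.51 between groups, together in some pairs and in opposition in others, so arrays were not paired by number. The members and gene lists were chosen with earlier results of these data known. Members were named where they passed and the arrays of the 2 groups did not overlap, up to 8 in each direction, with a fixed set of interleukin-1, interleukin-6, RANKL and TNF pathway members whatever they did. Others are given with their values and were chosen after these were seen. A further part of the rule, naming the members of highest intensity, was not used, because different probes' intensities cannot be compared. From other lists, up to 3 genes that passed were named per comparison. Alternatives were another pseudocount, dim genes left out, no trend, the mean of all probes, quantile normalization once more, a replicate block, a fit of each set alone and each array left out.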

Additional observations from a re-analysis of the deposited data

Results flagged for a closer look

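The change after SKM (SKM+EV against MEF1 EV) and the change after OKM (OKM+EV against MEF2 EV) differed for 18 of 50 members by the limma test of the difference itself. This test pooled the spread of each gene over all arrays, so its p-values do not measure the wider spread within OKM+EV. With the spread of set B alone, the change after OKM passed for 4 members rather than 27. Of the 9323 genes tested, 13.4% differed in one direction and 12.7% in the other. The differences are log2 values, SKM effect minus OKM effect. For 13 members they were positive, Il16 (2.66), Il18 (2.54), Il3ra (1.98), Il4ra (1.69), Tnfrsf26 (1.53), Tnfrsf21 (1.52) and Tnfaip2 (1.29). The others of these were Tnfrsf1b (1.15), Il17rc (1.09), Il18bp (1.06), Il10rb (1.01), Il20rb (0.98) and Il1a (0.91). For 5 members the change after OKM was higher, Tnfrsf11b (-3.51), Tnfsf11 (-1.73), Il1rn (-1.60), Il13ra1 (-1.54) and Il17rd (-0.85).

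Without OKM+EV replicate 3 the difference of Il4ra was 1.06, and its change after OKM -0.24 (adjusted p = 0.15). The difference of Tnfrsf21 without SKM+EV replicate 2 was 0.98, and without SKM+EV replicate 1 that of Il17rc was 1.65.

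Il16, Il3ra, Il18bp, Il10rb and Tnfrsf1b fell after OKM, where the summed myeloid markers went from 64674 to 68648 in MEF2 EV to 1472 to 6067 in OKM+EV. In MEF1 EV and SKM+EV the same sum was 1578 to 1674 and 1366 to 1563, over the fewer markers measured there. The part of myeloid cells in the 18 differences was not tested.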

How the results depend on the processing

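Of 276 member changes that passed, over all 17 comparisons, 215 passed in the same direction under every alternative other than leaving out an array (where the member was tested), 151 in every fit without 1 array and 139 in all. Directions turned in 2 cases: Il17re with GATA6 had 0.20 with the mean of all its probes (adjusted p = 0.56), and Tnfaip3 with SOX1 ranged from -0.025 without OKM+SOX2 replicate 1 to 1.91 without replicate 2 (adjusted p = 0.99 and 9.1e-11). A fit of each set alone, which uses that set's own spread and fewer arrays, lost 37 of them. It called 14 members with SOX7, 20 with PAX1, 7 with MIXL1, 4 with OKM, 4 with GMNN and 17 between the iPSC lines and R1. It called 0 with SOX1 and 0 with SOX3 in limma, where 10 and 9 members had an unadjusted p under 0.05. The labels number the arrays, and the deviations of same-numbered arrays correlated from -0.50 to 0.51 over 72 pairs of groups, above 0.1 in 22 and below -0.1 in 25, so the numbers do not pair the arrays. With the replicate number as a block, 6 members passed with MIXL1, 6 with SOX1 and 7 with SOX3, and 6 of the 276 changes were lost. A larger pseudocount left 1 with SOX1. Over genes at or above the median probe, 1 passed with SOX1, 4 with GMNN, 14 in the lines and 4 between iPSC and R1. Without 1 array the count ran from 5 to 8 with SOX7, 6 to 11 with PAX1, 15 to 23 with GRB2, 0 to 2 with MIXL1, 14 to 41 with OKM, 1 to 6 with SOX1, 1 to 6 with SOX3, 4 to 9 with GMNN, 19 to 36 in the lines and 2 to 8 between iPSC and R1. The cause of these changes was not tested. The pseudocount understates the change of dim members.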

Other observations

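Signalling genes behind the receptors, from lists outside the members, moved as well. In the pluripotent lines against MEF, 4 of 18 JAK-STAT genes rose and 7 fell, with the phosphatase Ptpn6 at 1.66, Stat3, the main STAT protein of the IL-6 family, at -1.61 and Stat5b at -1.52. Of 19 receptor adaptors 3 rose and 9 fell, with the kinases Ripk1 at -1.49 and Irak1 at -1.34. Of 18 other IL-6 and TNF family genes, 2 rose and 5 fell, among them the lymphotoxin receptor Ltbr at -1.54 and the oncostatin M receptor Osmr at -1.07. All genes of this comparison rose in 28.7% and fell in 29.1% of cases.

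With OKM, 8 of 19 JAK-STAT genes rose and 3 fell (19.8% and 21.1% of all genes), with Jak2 at 1.81 and the feedback inhibitor Socs3 at 1.48, and Ptpn6, which is expressed in blood cells, at -4.31 beside the fall of the myeloid markers. With GATA4 and SKM, Osmr (-1.81) and its downstream factor Stat3 (-1.33) fell. Stat2, a factor of the interferon response, rose by 1.35 with CEBPa, 1.67 with HNF4a and 1.75 with GRB2, comparisons that share the SKM+EV arrays. After OKM 1 of 5 lymphoid markers fell, and 1 of 3 mast cell and 2 of 6 endothelial markers rose, beside the shares of all genes given above.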
